A study of Mus musculus with 2 samples.

Results

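The 32 genes described here encode enzymes and carriers of glycolysis, of the pentose phosphate pathway and of the steps that feed them or take up their pyruvate. They were taken by gene symbol from 18177 annotated genes with reads, and every transcript model listed under a symbol was counted, 417 models in replicate 1 and 408 in replicate 2. Glycolysis splits glucose into pyruvate and yields ATP and NADH in the cytosol. The pentose phosphate pathway branches off at glucose 6-phosphate, and its oxidative arm makes NADPH while its non-oxidative arm interconverts sugar phosphates. In the adrenal cortex, steroid hydroxylation and cholesterol synthesis use NADPH, and pyruvate enters mitochondria through a carrier of paired subunits.

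Long-read RNA sequencing, in which 1 read can span a transcript from end to end, was carried out on adrenal glands of male B6CASTF1/J mice, an F1 hybrid of the C57BL/6J and CAST/EiJ strains, at 14 days of age and without treatment named in the labels. The only group held 2 libraries, called biological replicates 1 and 2. Both carry the same donor identifier, their biosample labels are numbered 3 and 4, and the labels name a set of 3 males without saying how many animals each library pooled. The spread between the libraries may therefore be technical. Every test below compares these libraries and not conditions, and its intervals cover counting error only.

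Apart from synthetic spike-ins, 964679 reads were listed in replicate 1 and 984958 in replicate 2, and levels are given in CPM, reads per 1000000 of these totals. A gene without reads could lie at up to 3.11 CPM in replicate 1 and 3.05 CPM in replicate 2, since a count of 0 allows 3 reads. Markers of the labelled tissue were abundant: 7 genes of the adrenal cortex summed to 36088 and 36059 CPM, and 5 genes of chromaffin cells to 8172 and 7942 CPM. Single markers differed behind these close sums. Of the 7 cortex genes, 1 was called higher in replicate 2 and 3 higher in replicate 1. Cyp11a1 had 15608 and 18160 CPM, and Cyp11b1 5848 and 4573 CPM. Of the 5 chromaffin genes, 2 were called higher in replicate 1. Other tissue was present to unequal degrees. The 8 liver markers summed to 754 CPM in replicate 1 and 15658 CPM in replicate 2, and 8 of 8 were called higher in replicate 2. Neuron markers summed to 177 and 48.7 CPM, with 4 of 5 called higher in replicate 1. Fat markers (11633 and 11756 CPM) and erythroid markers (14578 and 14472 CPM) were close in sum, with 2 of 5 erythroid markers called higher in replicate 1. Endothelial markers summed to 249 and 148 CPM, with 1 of 5 called, Tie1 (106 and 56.9 CPM), while Cdh5 had 14.5 and 17.3 CPM. Macrophage markers summed to 283 and 138 CPM, with 1 of 4 tested called, Lyz2 (180 and 58.9 CPM), while C1qb had 29.0 and 32.5 CPM. Of 5 skeletal muscle markers, 3 had no read in either library. With TMM scaling, described below, the calls shifted towards replicate 2. Then 2 chromaffin, 3 erythroid and 4 of 5 fat markers were called above replicate 1, and no marker of these 3 groups below it. Cortex genes gave 2 calls above and 1 below. Liver, neuron, endothelial and macrophage calls kept their number and direction. Over all genes, that scaling moved the share of calls above replicate 1 from 47.5% to 76.1%. The part that these differences play in the values below was not tested. In whole tissue, fewer cells of a type and less RNA per cell cannot be told apart.

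Pkm, pyruvate kinase, is known for a choice of exon, and the reads showed both outcomes. The gene (chr9:59656368-59679375, plus strand, mm10) encodes the M1 and M2 forms of the enzyme by using 1 of a pair of mutually exclusive coding exons of 167 bases each. The exons are printed because the reads were sorted by them. Capitals mark the 64 positions at which they differ, an identity of 61.7%, and both come from annotated transcripts of GENCODE M21. The M1 exon lies at chr9:59675029-59675195 and the M2 exon at chr9:59675568-59675734.
Pkm M1 exon: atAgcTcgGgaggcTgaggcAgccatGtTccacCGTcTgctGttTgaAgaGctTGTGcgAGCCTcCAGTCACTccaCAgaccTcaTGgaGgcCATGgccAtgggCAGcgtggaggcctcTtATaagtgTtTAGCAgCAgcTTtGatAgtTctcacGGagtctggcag
Pkm M2 exon: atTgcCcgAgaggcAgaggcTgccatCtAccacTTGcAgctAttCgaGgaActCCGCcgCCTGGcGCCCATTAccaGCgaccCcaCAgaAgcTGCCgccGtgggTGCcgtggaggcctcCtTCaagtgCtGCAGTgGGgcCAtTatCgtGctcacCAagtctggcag

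Most Pkm reads held the M2 exon. In replicate 1, 865 reads held the M2 exon and 165 the M1 exon, so that M2 made up 84.0% (Wilson 95% interval 81.6 to 86.1). In replicate 2 the numbers were 621 and 153, an M2 share of 80.2% (77.3 to 82.9). These intervals overlap, and the pooled share was 82.4%. Models with both exons had 4 reads and models with neither had 83, of which 72 were truncated. The M2 form is the one usually linked to embryonic and dividing tissue, and the M1 form to adult muscle and brain.

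Gapdh, the glyceraldehyde 3-phosphate dehydrogenase that forms NADH in glycolysis and serves as a reference gene in many assays, had only 9 reads in replicate 1 and 16 in replicate 2. The mouse genome holds many intronless copies of this gene. Of 85 annotated genes whose transcript matched Gapdh with at least 95% identity over at least 80% of its length, 19 had reads, 18 of them processed pseudogenes, with 852 reads in replicate 1 and 725 in replicate 2. The gene itself held 1.05% (Wilson 95% interval 0.551 to 1.97) and 2.16% (1.33 to 3.48) of the reads of gene and copies together. Gapdh alone stood at 12.8 ± 4.89 CPM (SD, n = 2) and with its copies at 822 ± 99.1 CPM.

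Most of these reads lay at 4 copies. The processed pseudogene Gm12671 (chr4:91851668-91852669) had 299 and 265 reads, and over 1002 coding bases it differs from Gapdh at 0 positions. Gm12033 (chr11:20335012-20336013) had 181 and 160 reads and 1 mismatch, at coding position 504. Gm5559 (chr5:95861714-95862715) had 170 and 118 reads and 1 mismatch, at position 385. Gm7336 (chr7:51746647-51747878) had 112 and 88 reads and 0 mismatches in the coding bases. All reads at these 4 copies came from single-exon models. The windows below, from the annotated transcripts, show how little sequence separates gene and copies. They span coding positions 365 to 405 and then 484 to 524, counted from 1 at the A of the start codon, and the capital marks the position at which 1 copy differs.
Gapdh, first window: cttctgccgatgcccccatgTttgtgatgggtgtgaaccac
Gm12671, first window: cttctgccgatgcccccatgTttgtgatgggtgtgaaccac
Gm5559, first window: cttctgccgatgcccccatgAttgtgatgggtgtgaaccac
Gapdh, second window: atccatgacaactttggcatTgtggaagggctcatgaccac
Gm12671, second window: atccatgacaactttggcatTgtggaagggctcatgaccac
Gm12033, second window: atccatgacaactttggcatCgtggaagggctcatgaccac

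Reads of Eno1 and Mpc1 were split in the same way, though less unevenly. Eno1, enolase 1, had 814 and 744 reads, beside 555 and 548 at Eno1b, an intronless coding copy, and 33 and 54 at the pseudogene Gm4735. The gene held 58.1% and 55.3% of the summed reads, and the sum stood at 1410 ± 61.4 CPM (SD, n = 2) against 800 ± 62.5 CPM for Eno1 alone. Mpc1, a subunit of the mitochondrial pyruvate carrier, had 282 and 293 reads, beside 213 and 236 at the processed pseudogene Mpc1-ps, so that the gene held 57.0% and 55.4%. Copies of the other 29 genes had at most 2 reads in a library. Whether a read at a copy was transcribed there was not tested. With all copies added, the 32 genes summed to 12346 ± 775 CPM, against 10694 ± 685 CPM without them.

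**Figure D1:**
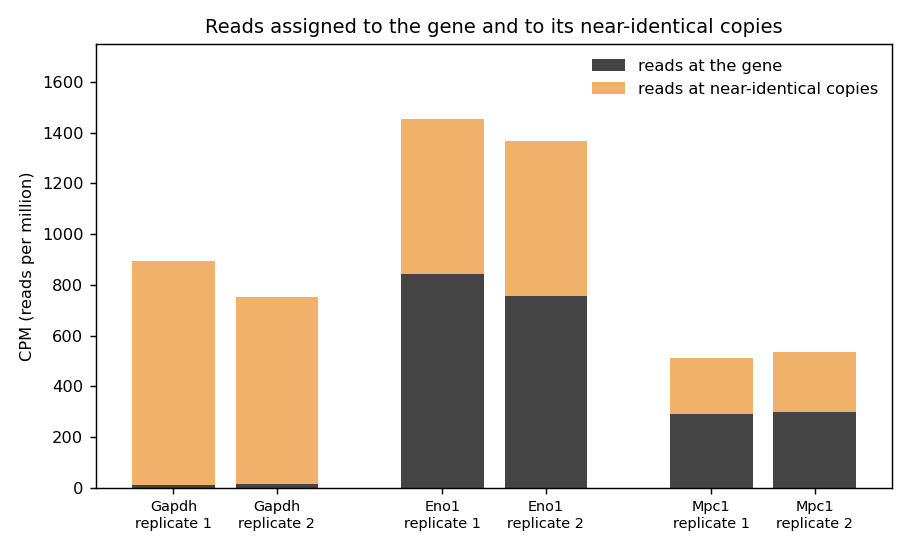
Levels in CPM of Gapdh, Eno1 and Mpc1 in each library, with reads assigned to the gene in dark grey and reads assigned to near-identical copies in orange, stacked from 0. The dark part is 1.05% and 2.16% of the bar for Gapdh, and over 50% for Eno1 and Mpc1 in both libraries.

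Mpc1 (chr17:8282904-8297661, plus strand) also showed a splice pattern outside the annotation. In 262 reads of replicate 1 and 278 of replicate 2, the first exon was joined directly to the exon that starts at 8296535. Annotated Mpc1 transcripts place an exon of 4 bases between them, chr17:8293415-8293418 in Mpc1-208 and chr17:8296527-8296530 in Mpc1-201. In Mpc1-201 the annotated intron that follows lies between 8296530 and 8296535, and whether so short a gap is spliced was not tested. The junctions are printed with 30 bases on each side, and capitals mark the 4-base exon.
Mpc1-208 junction: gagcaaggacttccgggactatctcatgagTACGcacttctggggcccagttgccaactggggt
Mpc1-201 junction: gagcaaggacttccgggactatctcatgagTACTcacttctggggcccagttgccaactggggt
Mpc1 read chain junction: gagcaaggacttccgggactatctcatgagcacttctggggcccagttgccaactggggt

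The sequence of Mpc1-ps, 330 bases long, holds the Mpc1-208 junction, 4 bases included, with 0 mismatches and the Mpc1-201 junction with 1, compared without gaps. The deposited tables give the intron chain and not the bases of a read, so whether the molecules carried the 4 bases was not tested. The tables also class this chain differently, as a new combination of annotated splice sites in replicate 1 and as a truncated chain in replicate 2. Among 4768 chains with at least 20 reads in each library, 9 (0.189%) were classed as full-splice in 1 table and as truncated in the other.

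In level, the 32 genes spanned 3 orders of magnitude. Each long read was counted once, whatever its length, so CPM is not divided by length unless stated. Without molecular identifiers, separate molecules and repeated reads of 1 molecule cannot be told apart. Aldoa, the aldolase that cleaves fructose 1,6-bisphosphate, was first with 2497 and 2145 CPM in replicates 1 and 2. Ldha, the A subunit of lactate dehydrogenase, followed with 1217 and 1214 CPM, and Pkm with 1100 and 843 CPM. Next came Pgam1 (phosphoglycerate mutase, 909 and 784 CPM), Eno1 (844 and 755 CPM) and Taldo1 (transaldolase, 759 and 725 CPM). Ranges overlapped between neighbours in this order from Pkm to Taldo1, while Aldoa lay above all others in both libraries. This order and the one per length below count reads at the gene only. With near-identical copies added, Eno1 had a mean of 1410 CPM, above Ldha at 1216 CPM. Gapdh then had 822 CPM, above Taldo1 at 742 CPM. Rpia, ribose 5-phosphate isomerase, was last with 1 and 2 reads. Divided by the length of the most read known model, Aldoa (1536 CPM per kb), Ldha (766 CPM per kb) and Taldo1 (604 CPM per kb) led, and Pkm moved from the third to the seventh place. For Gapdh that model is an unspliced retained-intron transcript of 3289 bases, so its place per length means little.

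**Figure D2:**
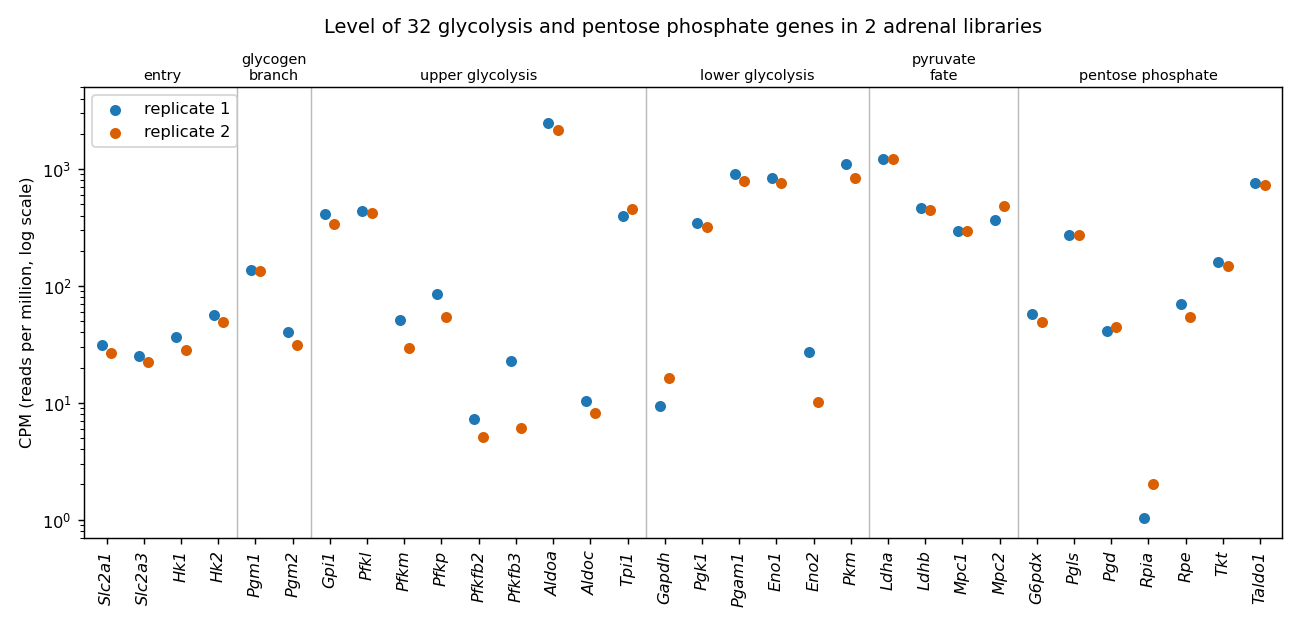
Level in CPM of each of the 32 genes in replicate 1 (blue) and replicate 2 (orange) on a log scale, ordered by step of the pathway. Reads at near-identical copies are left out. Levels run from Rpia at 1.04 and 2.03 CPM to Aldoa at 2497 and 2145 CPM, and the libraries differ little for most genes.

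By role, the upper part of glycolysis from Gpi1 to Tpi1, with Pfkfb2 and Pfkfb3, summed to 3687 ± 328 CPM (SD, n = 2) over 9 genes. The lower part from Gapdh to Pkm summed to 2979 ± 359 CPM over 6 genes. With the near-identical copies of its genes added, the lower part came to 4401 ± 462 CPM, above the upper part, whose sum the copies left at 3687 CPM. The lactate dehydrogenases with the pyruvate carrier gave 2390 ± 72.9 CPM over 4 genes, or 2620 ± 86.2 CPM with copies. Transporters and hexokinases, which bring glucose in and phosphorylate it, gave 137 ± 15.8 CPM over 4 genes. The oxidative pentose phosphate arm gave 370 ± 4.72 CPM over 3 genes, the non-oxidative arm 960 ± 42.4 CPM over 4, and the phosphoglucomutases of the glycogen branch 171 ± 7.59 CPM over 2.

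The entry step had few reads. The glucose transporter Slc2a1 had 31.1 and 26.4 CPM and Slc2a3 24.9 and 22.3 CPM. Hexokinase Hk1 stood at 36.3 and 28.4 CPM and Hk2 at 56.0 and 48.7 CPM. None of the 4 was called different between libraries in the test described below, which called 9.17% of all genes.

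Within the oxidative pentose phosphate arm, the enzymes were unequal. G6pdx, the dehydrogenase that commits glucose 6-phosphate to the pathway, had 57.0 and 48.7 CPM. Pgls, the lactonase of the next step, had 275 and 273 CPM, and Pgd, which makes the second NADPH, 41.5 and 44.7 CPM. Per kb of model length, Pgls at 307 CPM stayed above G6pdx at 19.9 CPM and Pgd at 19.4 CPM. In the non-oxidative arm, transketolase Tkt had 160 and 149 CPM and the epimerase Rpe 70.5 and 53.8 CPM. Per kb, Taldo1 at 604 CPM stood above Tkt at 47.9 CPM and Rpe at 23.1 CPM.

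Shares are given within the members of each family, leaving out isozymes that are no members, and most were close in both libraries. Of the reads of Aldoa and Aldoc, 99.6% were Aldoa in each library, with Aldoc at 10 and 8 reads. Of the reads of Eno1 and Eno2, 96.9% and 98.7% were Eno1. The muscle enolase Eno3, no member, had 16 and 28 reads beside them (adjusted p = 0.364). Eno2, the neuronal form, had 27.0 and 10.2 CPM (26 and 10 reads). Its ratio, replicate 2 over replicate 1, was 0.377 (exact 95% interval 0.162 to 0.807), with an adjusted p of 0.0691 in the binomial test described below, and 0.0440 with the reads of the ERCC spike-ins as library size. Neuron markers were lower in replicate 2 too, at 48.7 against 177 CPM, and their part in the Eno2 value was not tested. Ldha made up 72.5% and 73.0% of the reads of Ldha and Ldhb, with Ldhb at 461 and 449 CPM.

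The phosphofructokinases, which control the committed step of glycolysis, were led by the liver form Pfkl with 438 and 420 CPM. Pfkp, the platelet form, had 85.0 and 53.8 CPM, and Pfkm, the muscle form, 50.8 and 29.4 CPM. The Pfkl share was 76.4% (Wilson 95% interval 72.6 to 79.7) in replicate 1 and 83.5% (79.9 to 86.5) in replicate 2. Among the 9 families, this was the only leading share whose intervals did not overlap between the libraries. The CPM ratio of Pfkl itself was 0.959 (exact 95% interval 0.835 to 1.10). Liver markers were higher in replicate 2, as given above, and their part in the share was not tested.

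In the small families the reads gave wide intervals. Slc2a1 had 55.6% (42.4 to 68.0) and 54.2% (40.3 to 67.4) of the reads of the transporter pair. Pfkfb3, which makes and removes the phosphofructokinase activator fructose 2,6-bisphosphate, had 75.9% (57.9 to 87.8) and 54.5% (28.0 to 78.7) of its pair, with Pfkfb2 at 7 and 5 reads. Pgm1 made up 77.1% and 81.0% of the reads of Pgm1 and Pgm2, with 136 and 134 CPM beside 40.4 and 31.5 CPM for Pgm2. Hk2 led Hk1 with 60.7% (50.3 to 70.2) and 63.2% (51.9 to 73.1). Counting known models only turned this order, with Hk2 at 35.8% of pooled reads. Mpc2 had 55.7% and 61.8% of the carrier reads, and adding the reads of Mpc1-ps to Mpc1 turned that order too, to 44.7% of pooled reads. Per kb of model length, Mpc2 had 43.8% of the carrier, and the isozyme with most reads stayed ahead in the other 8 families. The Mpc1 length is that of the known model Mpc1-202, 555 bases, while known models held only 6 and 5 of the Mpc1 reads.

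**Figure D3:**
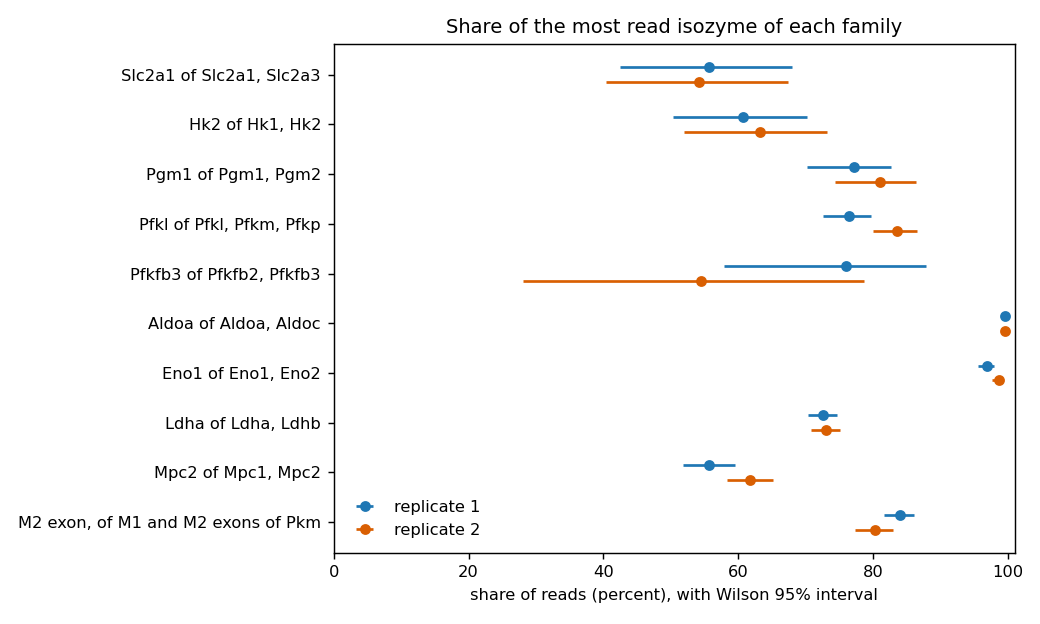
Share in percent of the most read isozyme within each of 9 families, and of the M2 exon within Pkm, in replicate 1 (blue) and replicate 2 (orange), with Wilson 95% intervals. Aldoa and Eno1 lie near 100%, Pfkl is the isozyme whose intervals do not overlap, and Pfkfb3 has the widest interval.

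Between the libraries, 5 of the 31 members tested differed beyond counting error. For each gene with at least 10 reads, an exact binomial test (two-sided) asked whether its split between libraries departed from that of the totals, and p-values were adjusted by Benjamini-Hochberg over 11094 genes, with a threshold of 0.05. Of all genes 9.17% were called, 4.35% higher in replicate 2 and 4.81% higher in replicate 1. Of the 31 members tested, 1 was higher in the second library, 4 were lower there and 26 were not called, while Rpia had too few reads for the test. The median log2 ratio, replicate 2 over replicate 1, was -0.20 over these members and -0.15 over all genes tested. With TMM scaling, which sets the bulk of genes equal, the medians were -0.04 and 0.00, and the share of calls higher in replicate 2 over all genes went from 47.5% to 76.1%. That scaling called 7.86% of all genes, with 5.99% above and 1.87% below in the second library, and 2 and 1 of the members.

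Pkm was lower in replicate 2, with 830 reads against 1061. Its CPM ratio was 0.766 (exact 95% interval 0.699 to 0.840, adjusted p = 4.63e-07), and it was called under TMM scaling too (adjusted p = 0.00964). Mpc2, the other carrier subunit, was higher in replicate 2, with 474 reads against 355, a ratio of 1.31 (1.14 to 1.50, adjusted p = 0.00302), and this call was also made under TMM scaling (adjusted p = 3.26e-06).

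The other 3 calls were lost under TMM scaling. Aldoa had 2409 and 2113 reads, a ratio of 0.859 (0.810 to 0.911, adjusted p = 1.49e-05), and an adjusted p of 0.492 with TMM. Pgam1 had 877 and 772 reads, a ratio of 0.862 (0.782 to 0.951, adjusted p = 0.0333), and 0.788 with TMM. The Pgam1 call was also lost with liver markers left out of the library sizes (adjusted p = 0.0730), without a read filter (0.0542), with known models only (0.159) and with full-splice models only (0.229). Pfkfb3 had 22 and 6 reads, a ratio of 0.267 (0.0886 to 0.679, adjusted p = 0.0280), and 0.0775 with TMM. On the log2 scale the Pfkfb3 ratio was -1.82 and -1.67 with TMM, against -0.22 and -0.07 for Aldoa and -0.21 and -0.06 for Pgam1. Tpi1, triose phosphate isomerase, had 381 and 444 reads and was called higher in replicate 2 only with TMM scaling (adjusted p = 0.0108 against 0.284).

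Several members without a call had intervals below 1. Pfkm stood at a ratio of 0.580 (adjusted p = 0.156), Pfkp at 0.633 (adjusted p = 0.0872) and Gpi1, glucose 6-phosphate isomerase, at 0.815 (adjusted p = 0.0623). Some alternatives did call them lower in replicate 2. Gpi1 was called with ERCC reads as library size (adjusted p = 0.0136), at a minimum of 50 reads (0.0438), with known models (0.0167) and with full-splice models (0.0376), Pfkm with known (0.0463) and full-splice models (0.0483), and Pfkp with ERCC reads (0.0441). Eno1, at a ratio of 0.895 (adjusted p = 0.184), was called with ERCC reads too (0.0308). Pgk1, which makes the first ATP of glycolysis, had 331 and 312 reads, a ratio of 0.923 (adjusted p = 0.687). Ratios nearest to 1 were those of Ldha (0.998), Pgls (0.994) and Pgm1 (0.987).

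**Figure D4:**
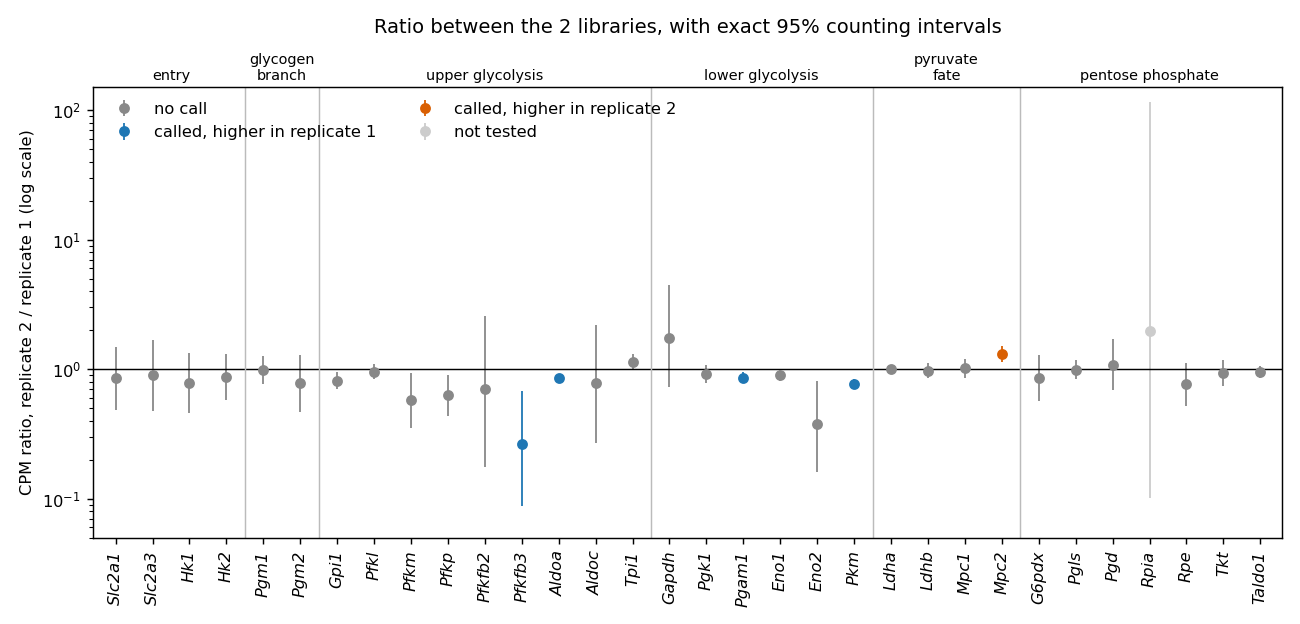
Ratio of CPM in replicate 2 over replicate 1 for each of the 32 genes on a log scale, with exact 95% counting intervals; orange marks the gene called higher in replicate 2, blue those called higher in replicate 1, and grey the rest. The 26 uncalled genes lie between 0.377 (Eno2) and 1.74 (Gapdh), and Rpia, not tested, has the widest interval.

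Full-splice reads are those in known models or in models with a new chain, rather than in truncated ones. Known models of 1 exon were counted too, such as Gapdh-213 with 2 and 6 reads. Full-splice reads made up 93.3% of the members' reads in replicate 1 and 87.6% in replicate 2. Over all annotated genes the shares were 84.0% and 80.4%. Truncated reads made up 5.91% and 11.3% of the members' reads, or 6.06% and 8.79% without Mpc1, against 10.4% and 13.1% over all annotated genes. A two-sided Fisher's exact test per gene, with Benjamini-Hochberg adjustment over 6033 genes, called 1.21% of genes, 1.11% with a higher share in replicate 1 and 0.0995% in replicate 2. Of 26 members tested, 3 were called, all with a higher share in replicate 1. Mpc1 went from 98.9% to 3.41% (adjusted p = 6.48e-144), which comes with the difference in class of its main chain. Pkm went from 92.7% to 85.1% (adjusted p = 4.39e-05) and Ldha from 96.1% to 92.4% (adjusted p = 0.0157).

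Among members with at least 20 reads, Hk2 and Pgd had the lowest shares pooled over the libraries. Hk2, with an annotated length of 5513 bases, had 18.5% and 33.3% full-splice reads, and 55.6% and 54.2% truncated ones. Pgd had 37.5% and 13.6% full-splice reads, against 62.5% and 86.4% truncated. Shares above 95% in both libraries were those of Mpc2 (98.9% and 98.9%), Pgam1 (97.8% and 97.3%), Taldo1 (97.3% and 96.1%) and Pgls (98.5% and 95.9%). Across 29 members with at least 20 reads, the pooled share was lower for longer known models (Spearman's rho = -0.52, Pearson's r = -0.41). These points share libraries and depth, and the correlation is a description only. They include Mpc1, whose pooled share of 50.3% joins 98.9% and 3.41%, and Gapdh at the length of its unspliced model of 3289 bases.

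**Figure D5:**
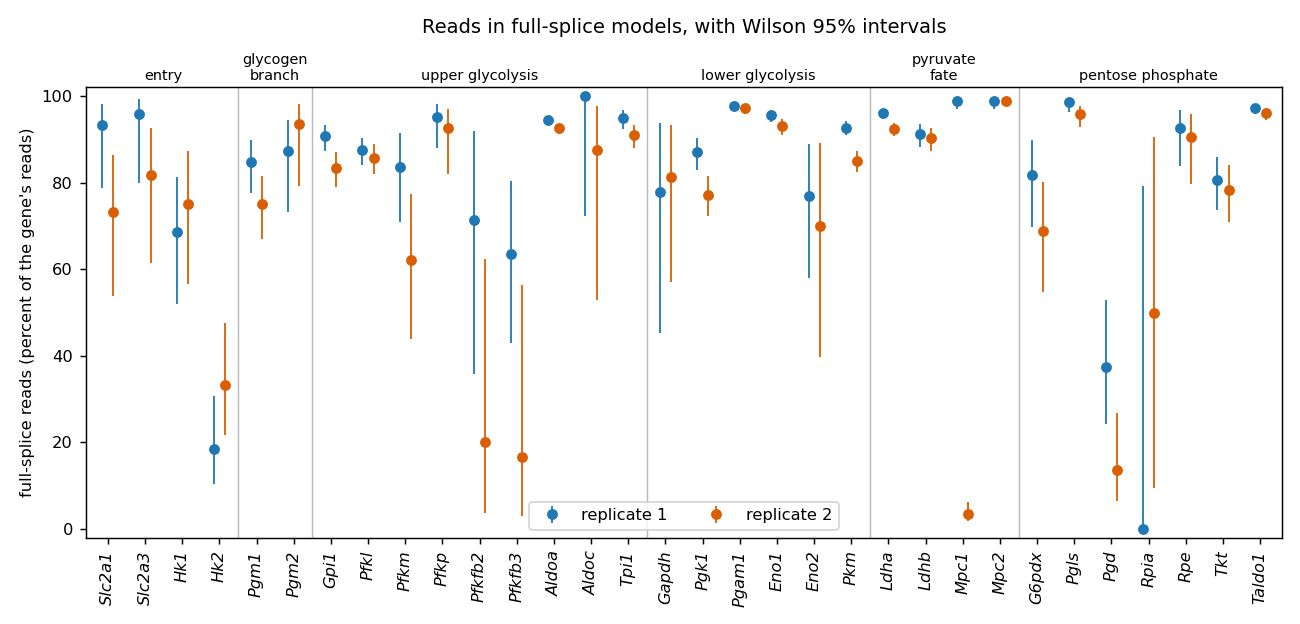
Share in percent of each gene's reads that lay in full-splice models, in replicate 1 (blue) and replicate 2 (orange), with Wilson 95% intervals. Hk2 and Pgd are low in both libraries, and Mpc1 is high in replicate 1 and at 3.41% in replicate 2.

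Where reads spanned the gene, 1 transcript dominated. In 21 of the 32 genes, the most read full-splice transcript held at least 90% of full-splice reads, among them Pgam1-201 (99.4%), Pgk1-201 (99.1%), Ldha-202 (98.3%), Tpi1-205 (98.0%), Gpi1-201 (98.0%), Ldhb-201 (97.1%), Eno1-202 (96.8%) and Pgls-201 (96.7%). The same held for Taldo1-201 (96.6%), Mpc2-201 (96.6%), Pfkl-201 (95.7%), Slc2a1-201 (95.7%), Hk1-202 (95.6%), Pgm2-201 (95.2%), Aldoc-201 (94.1%), Aldoa-201 (93.7%), G6pdx-201 (93.6%), Hk2-201 (92.3%) and Pgm1-201 (91.0% in replicate 1 and 88.9% in replicate 2). Lower shares were those of Tkt-201 (89.1%), Pfkp-207 (88.2%), Slc2a3-201 (85.4%), Pfkm-201 (83.1%), Rpe-201 (82.0%), Pkm-201 (76.3%) and Pgd-201 (76.2%). Eno2-201 (55.6%), Pfkfb3-206 (53.3%), Gapdh-213 (40.0%) and Pfkfb2-203 (33.3%) led genes with few full-splice reads, and Rpia had 1 such read. The 21 include Rpia, and Mpc1 only where its unannotated chain is counted in both libraries (95.2%), although the table of replicate 2 classes that chain as truncated. Pkm-202, which holds the M1 exon, was the only second transcript with at least 10 reads and at least 10% of the pooled full-splice reads, 15.5% and 17.6% by library.

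The share of the top transcript did not separate the libraries. Fisher's exact test, computed with scipy and adjusted over 4817 genes, called 0.125% of genes and 0 of 20 members tested. At an unadjusted p below 0.05 there was 1 member, Pkm, whose Pkm-201 share was 78.2% and 73.7% (Fisher's exact p = 0.0368). Aldoa has several annotated first exons on the minus strand. Of 4228 multi-exon full-splice reads, 97.9% used the one whose inner edge lies at chr7:126799045, as in Aldoa-201. Upstream first exons with inner edges at 126800002 and 126800288 took 0.710% and 0.733%, the latter the first exon of Aldoa-203.

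Unannotated chains with at least 10 reads numbered 12, and 5 of them belonged to Pkm. Aside from the Mpc1 chain, they were rare. Taldo1 had 15 reads (8 and 7) with an unannotated intron at chr7:141396169-141398494. Pgm1 had 12 (5 and 7) with an intron at chr4:99967218-99969991, both of whose sites are unannotated, and these were 5.71% of its full-splice reads. Ldha had 11 (7 and 4) with an intron at chr7:46851056-46851876. In Pkm, 24 reads (13 and 11) held an intron at chr9:59661676-59663039, and the other chains had introns at chr9:59671730-59671920 (11 reads), chr9:59661472-59665199 (10 reads), chr9:59661603-59663039 (10 reads) and chr9:59661676-59665199 (10 reads). Aldoa (30 and 11 reads) and Ldhb (10 reads) combined annotated introns in new ways.

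Related genes outside the 32 were read from the same tables. Of 33 other isozymes and transporters of the same steps, 25 had reads and 16 were tested. Pgm3, a phosphoglucomutase of amino sugar synthesis, was called higher in replicate 2, with 18 and 43 reads (ratio 2.34, adjusted p = 0.0263). Liver markers were higher in the same library, and their part was not tested. Among the more abundant genes of the list were Pgp (398 CPM), Bpgm (88.9 CPM) and H6pd (71.8 CPM), the last an enzyme that makes NADPH inside the endoplasmic reticulum.

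Among 17 genes of gluconeogenesis and glycogen, 15 were tested. Fbp1, which reverses the phosphofructokinase step in liver and kidney, had 6 and 127 reads (ratio 20.7, adjusted p = 4.95e-28), with the liver markers higher in the same library. Pck1, phosphoenolpyruvate carboxykinase, had 617 and 497 CPM (ratio 0.807, adjusted p = 0.00826), and this call was lost with TMM scaling (adjusted p = 0.382). Pcx, pyruvate carboxylase, had 450 and 484 CPM, Ugp2 89.1 and 112 CPM and Gyg 92.3 and 92.4 CPM, without a call.

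Downstream of the carrier, 18 of 19 genes of pyruvate use and lactate transport were tested, with 1 higher in replicate 2 and 6 higher in replicate 1. Over all genes, 4.35% were called higher in replicate 2 and 4.81% higher in replicate 1. Of 5 listed genes for subunits of the pyruvate dehydrogenase complex, 3 were called lower in replicate 2: Pdha1 had 511 and 317 CPM (ratio 0.620, adjusted p = 1.52e-09), Dlat 591 and 391 CPM (0.662, adjusted p = 1.86e-08) and Dld 543 and 398 CPM (0.733, adjusted p = 1.09e-04). Pdhb (ratio 0.826, adjusted p = 0.245) and Pdhx (0.874, adjusted p = 0.570) were not called. Pdk4, a kinase that switches this complex off, had 556 and 298 CPM (ratio 0.537, adjusted p = 2.77e-16). These 4 calls were also made with TMM scaling, while those of Pdk2 (187 and 121 CPM, adjusted p = 0.00457) and Gpd1 (1335 and 1168 CPM, adjusted p = 0.0152) were not. Bsg, the chaperone of lactate transporters, was higher in replicate 2, with 989 and 1247 CPM (ratio 1.26, adjusted p = 3.38e-06).

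Of 12 genes that supply NADPH by other routes, 11 were tested and 1 was called, near the share of 9.17% over all genes. The called gene was Aldh1l1, a folate enzyme that is abundant in liver, with 105 and 197 CPM (ratio 1.88, adjusted p = 5.83e-06). Liver markers were higher in the same library. Nadk, which makes NADP from NAD, had 497 and 458 CPM, malic enzyme Me1 502 and 420 CPM, and the isocitrate dehydrogenases Idh1 and Idh2 454 and 434 CPM and 391 and 379 CPM.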

How the data were processed

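Long reads of 2 adrenal libraries were used as deposited. Per the labels, reads were placed on mm10, and per the accompanying file description they were assigned with GENCODE M21. The authors deposited read counts per transcript model, whole numbers without normalization, in 1 table per library; the attributes of the deposited annotation name TALON, while no source used here names the aligner or the TALON version. Counts were summed over all models of a gene and divided by the reads outside ERCC spike-ins (1.73% and 1.80% of all reads were left out). Model class, exon number and length are the authors' values, and chains were matched between libraries by exact intron coordinates. Depth limits low genes, and intervals (Wilson or exact, 95%) cover counting error only. Reads carry no molecular identifiers in these tables.

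With 1 group there is no contrast for a count model between conditions, so the libraries were compared by exact binomial and Fisher's exact tests with Benjamini-Hochberg adjustment (threshold 0.05; scipy 1.17.1, Python 3.11.15). TMM factors came from edgeR 4.0.16 in R 4.3.3. Near-identical copies were found with blastn 2.17.0 among GENCODE M21 transcripts, a step chosen after seeing the data. The binomial test and the test of top transcript shares were tried on simulated data with counting error only. The test of full-splice shares was not tried in this way. Members and gene lists were chosen with earlier results of these data known. Named were all 32 members, every called gene and the 4 highest of each other list (by mean CPM), the top transcript of each member, others with at least 10% and 10 reads, and unannotated chains with at least 10 reads. Alternatives were other library sizes, read filters, model classes, scaling per length and single libraries. Some results of the list of other isozymes are not reported here.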

Additional observations from a re-analysis of the deposited data

How the results depend on the processing

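No paired analysis was possible because the series has 1 group. Against 5 of 31 members called, TMM scaling called 3 and ERCC reads as library size 9, of which 8 were higher in replicate 1. Of 11094 genes in all, 1017 were called, 872 with TMM scaling and 1145 with ERCC reads. The count over all genes stayed within 1.5 times of 1017 in each alternative. The share of all calls that were higher in replicate 2 was 47.5%, against 76.1% with TMM and 37.3% with ERCC reads. Counting only full-splice models reversed Mpc1 to a log2 ratio of -4.69 (adjusted p = 2.54e-65), against 0.03 with all models, because its main chain is classed differently in the tables. Leaving out single-exon reads lowered the genes called for full-splice share from 73 to 28, and counting known models only left 1 member of 3. The summed level of 10694 CPM was 12971 with known models over their own total, 11494 with the fixed list of copies, 12346 with copies found by sequence (chosen after seeing the data) and 6731 CPM per kb, and 10210 to 11178 in single libraries. Known models only moved the pooled shares of Hk2 from 61.8% to 35.8%, Ldha from 72.8% to 73.8%, Slc2a1 from 54.9% to 56.2%, Pfkfb3 from 70.0% to 86.7%, Pgm1 from 79.0% to 75.9% and Mpc2 from 59.0% to 98.7%. Mpc1, the other carrier subunit, had only 6 and 5 reads in known models, and its main chain was classed as known in neither library. Reads per kb, also chosen later, gave Hk2 55.7%, Aldoa 99.8%, Ldha 68.7%, Slc2a1 59.7% and Mpc2 43.8%, and sequence copies gave Mpc2 44.7%. Single libraries ranged from 54.5% to 75.9% for Pfkfb3 and from 80.2% to 84.0% for the M2 exon. The causes were not tested. A call between libraries needs both, so none was made with a library left out. Genes under about 30 reads, such as Pfkfb2, Aldoc, Gapdh and Rpia, can show only large differences at this depth.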
